A study of Mus musculus with 24 samples.

Results

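RBM25 knockdown organoids were compared with control organoids in 6 bulk RNA sequencing libraries, 3 per group, out of 24 libraries in the series and out of 12 organoid libraries in 4 groups. The knockdown organoids received a lentivirus directed against RBM25, and their titles call them knockout. The control organoids are labelled as untreated, and whether they received a control virus is not given in the sources used here, so the virus and the loss of RBM25 cannot be told apart. Cells of both groups came from the cochlear epithelium of wild-type mice at postnatal days 1 to 2. They were expanded in Matrigel with epidermal, fibroblast and insulin-like growth factors and CHIR99021, a GSK3 inhibitor that activates Wnt signalling. They were then differentiated with CHIR99021 and LY411575, a gamma-secretase inhibitor that blocks Notch signalling, and kept afterwards with little growth factor. The other organoid groups, RBM25 knockdown plus TNF and TNF alone (3 libraries each), entered the fit and served as a second measurement of the knockdown effect. Its group means use no library of the comparison without TNF, but the count filter, the scaling and the estimate of the spread are shared. Nothing in the labels says that replicates were separate cultures, so p-values measure the spread between these libraries, which may be technical.

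RBM25 is a nuclear RNA-binding protein that binds exonic enhancers, contacts the U1 small nuclear ribonucleoprotein through LUC7-like proteins and shifts 5′ splice site choice, with the apoptosis regulator Bcl-x as its best known target. Cochlear organoids hold cells resembling the sensory hair cells, which turn vibration into synaptic signals, and the supporting cells around them, which can give rise to hair cells in the newborn ear. Blocking Notch and activating Wnt together moves such progenitors towards hair cells.

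The 6 libraries held 33802411 to 37048422 counts, and Igfbp5 was the gene with the largest share of each, at 2.31% to 2.65%. Levels are given in CPM (counts relative to library size, with TMM factors) for replicates 1, 2 and 3 in that order, and changes as log2 fold changes, knockdown over control. Of 25190 genes listed, 15888 passed the filter on low counts, and a gene counts as changed at an adjusted p under 0.05 by edgeR's quasi-likelihood F-test with Benjamini-Hochberg adjustment over these genes. The biological coefficient of variation was 8.04%. Counts are summed over transcripts, so splice isoforms are not resolved. The libraries are unstranded, so reads in exons that overlap another gene cannot be assigned. Among genes named below, the share of exonic bases that overlaps another gene was 40.6% for Epyc, 38.1% for Notum, 30.7% for Cdkn1c, 25.3% for Srsf2, 22.8% for Ube2c, 22.3% for Bnip3, 21.3% for Timp3, 20.5% for Dll1 and 20.1% for Fbn1, and at most 18.9% for the others. In bulk samples, fewer cells of a type and less RNA per cell cannot be told apart.

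Replicate 1 of the knockdown stood somewhat apart from the other 2 knockdown libraries, where the chi-square of their counts, divided by its degrees of freedom, was 19.6 and 34.5 against them, compared with 9.15 between those 2 and 4.54 to 8.11 between control libraries. TNF replicate 1, which belongs to neither group but enters the shared estimate of the spread, stood apart in fibroblast genes, with 62.7 CPM of the collagen Col1a1, against 0.950 and 7.12 CPM in the other TNF libraries. List counts that moved by more than 1.5 times without 1 knockdown or control library, or without TNF replicate 1, are given with that value beside them. The epithelial marker Epcam had 903, 998 and 949 CPM in knockdown organoids, against 913, 946 and 940.2 CPM in control organoids. The groups overlapped, and Epcam did not pass the test (log2 fold change 0.03, SE 0.06, adjusted p = 0.737).

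Rbm25 (chr12:83632208-83683127, GRCm38.p6) had 96.9, 94.2 and 92.7 CPM in knockdown organoids, against 142, 148 and 144 CPM in control organoids. The groups did not overlap, and the knockdown mean was 65.3% of the control mean. The log2 fold change was -0.61 ± 0.06 (SE), with an adjusted p of 1.01e-07. Tested against a minimum fold of 1.5 in place of no change, the decrease did not pass (adjusted p = 0.555). In the libraries with TNF, Rbm25 had 103, 122 and 108 CPM with the knockdown, against 150.0, 163 and 173 CPM without it, which is 68.4%, and the knockdown effect with TNF differed from that without by 0.07 (log2, adjusted p = 0.683).

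Across all genes, 3870 (24.4% of 15888) were higher and 4488 (28.2%) were lower in knockdown organoids, together 52.6% of the genes tested. A change of 2-fold or more was seen in 1578 genes that rose and 774 that fell. Tested against a minimum fold of 1.5, 1460 were higher and 890 lower. The libraries of the groups did not overlap for 61.9% of the genes tested, so a count of members in the gene groups below is read against these shares. The median log2 fold change of all genes was -0.03. Which direction had more genes depended on the settings: 46.3% of the genes called were higher, against 51.5% with DESeq2 size factors, 54.2% with no count filter, 55.2% with limma on FPKM, 50.2% with the compared libraries only, 50.9% without knockdown replicate 1 and 50.8% without TNF replicate 1. The median of all genes stayed between -0.03 and 0.02 in these fits. In the plot of all genes against level, changes of 2-fold or more reach up to abundant genes such as Tecta (log2 fold change 1.62). Igfbp5, the most abundant gene, had -0.24.

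**Figure D1:**
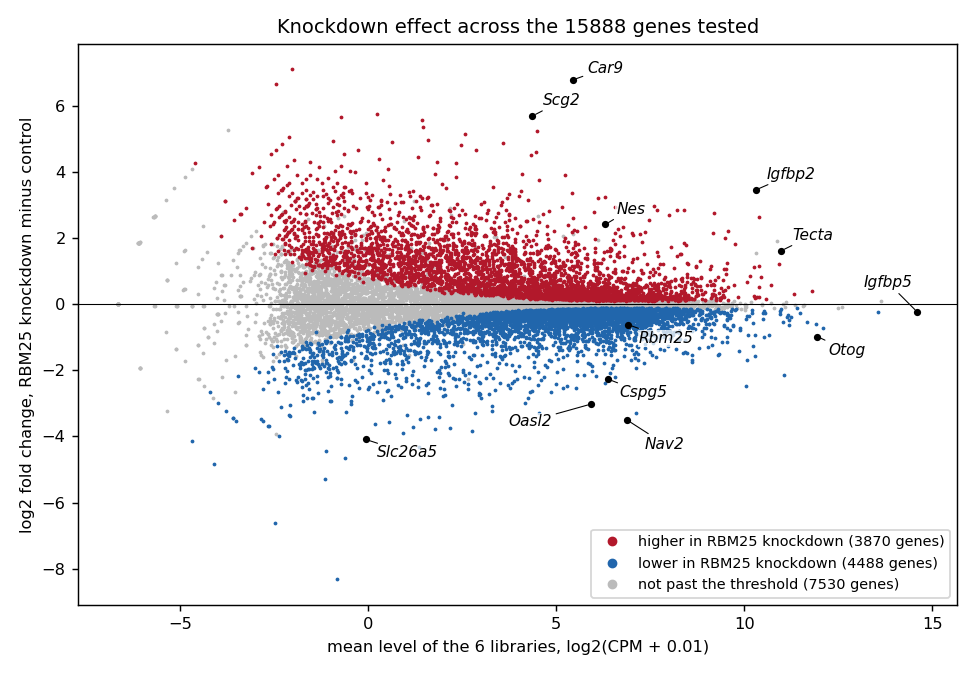
Log2 fold change of each of the 15888 genes tested (vertical axis, RBM25 knockdown minus control) against its mean level over the 6 libraries (horizontal axis, log2 of CPM + 0.01). Red points (3870 genes) are higher and blue points (4488 genes) lower in the knockdown at an adjusted p under 0.05, and grey points did not pass; 12 genes named in the text are marked, with Car9 highest among them at 6.79 and Slc26a5 lowest at -4.09.

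The largest increases among genes that reached 1 CPM were led by Car9, a membrane carbonic anhydrase (chr4:43507026-43513729). Car9 had 91.2, 91.5 and 75.4 CPM in knockdown organoids, against 0.717, 0.895 and 0.706 CPM in control organoids (log2 fold change 6.79, SE 0.45, adjusted p = 2.05e-06). The groups were far apart, with every knockdown library at 75.4 CPM or more and every control library at 0.895 CPM or less. Scg2, the secretory granule protein secretogranin II, had 30.2, 37.7 and 53.4 CPM in knockdown organoids, against 0.717, 0.924 and 0.677 CPM in control organoids (log2 fold change 5.70, SE 0.43, adjusted p = 4.98e-06). Abca13, a lipid transporter of the ABC family, had 45.8, 43.6 and 40.9 CPM in knockdown organoids, against 1.43, 0.578 and 1.41 CPM in control organoids (log2 fold change 5.25, SE 0.22, adjusted p = 3.67e-10). Ajap1, a protein of adherens junctions, had 24.8, 22.6 and 22.2 CPM in knockdown organoids, against 0.746, 0.809 and 0.795 CPM in control organoids (log2 fold change 4.88, SE 0.15, adjusted p = 1.79e-14). None of these overlapped between groups. The other genes at the top were Slc6a13, a GABA transporter, Ndufa4l2 and Cox4i2, relatives of respiratory chain subunits known to be induced by low oxygen, the mitochondrial protein Mgarp, Mab21l4, the uroplakin Upk1b, the glycoprotein Stc2 and the transcriptional regulator Aire. Their log2 fold changes ran from 4.66 (Aire) to 5.77 (Slc6a13). All of them were at or below 0.589 CPM in each control library.

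The largest decreases included Slc26a5, which encodes prestin, the motor protein of outer hair cells (chr5:21809001-21865604). Slc26a5 had 0.104, 0.0557 and 0.147 CPM in knockdown organoids, against 1.52, 2.17 and 1.68 CPM in control organoids (log2 fold change -4.09, SE 0.41, adjusted p = 1.14e-07), or 11 counts against 185 in all. Nav2, a neuron navigator protein that binds the cytoskeleton, was the most abundant of this group in controls and had 22.1, 16.9 and 18.2 CPM in knockdown organoids, against 221, 211 and 213 CPM in control organoids (log2 fold change -3.49, SE 0.17, adjusted p = 7.17e-08). P2rx5, an ATP-gated ion channel, had 0.494, 0.697 and 0.678 CPM in knockdown organoids, against 8.40, 8.52 and 8.01 CPM in control organoids (log2 fold change -3.74, SE 0.25, adjusted p = 4.61e-10). These 3 genes were separated between groups by wide gaps. The lowest log2 fold change, -4.65, belonged to the aldehyde oxidase Aox4, at 0.0520, 0 and 0.0885 CPM in knockdown organoids, against 1.23, 1.18 and 1.32 CPM in control organoids. The calpain protease Capn3, the zinc finger factor Ikzf3, the postsynaptic scaffold gene Dlgap1, the organic cation transporter Slc22a3, Bnip5, the retinol dehydrogenase Sdr16c5, the secreted glycoprotein Olfm4 and the sialyltransferase St8sia6 made up the rest, with log2 fold changes from -4.33 (Capn3) to -3.42 (St8sia6).

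The smallest p-values belonged to genes of higher level with little spread. Nes, the intermediate filament nestin, had 129, 135 and 135 CPM in knockdown organoids, against 25.3, 24.3 and 25.2 CPM in control organoids (log2 fold change 2.42, SE 0.05, adjusted p = 2.58e-16). Myl9, a regulatory myosin light chain, had 323, 369 and 378 CPM in knockdown organoids, against 50.4, 49.3 and 49.0 CPM in control organoids (log2 fold change 2.85, SE 0.07, adjusted p = 3.99e-16). Cited1, a transcriptional coactivator, had 64.1, 73.6 and 72.1 CPM in knockdown organoids, against 4.13, 4.85 and 4.80 CPM in control organoids (log2 fold change 3.93, SE 0.10, adjusted p = 1.51e-15). Within each group these libraries differed little compared with the distance between groups. Kank4 and the centrosomal gene Cep41 rose by 2.18 and 1.51 on the log2 scale. In the other direction, Ly6e, a surface protein anchored in the membrane, had 339, 339.6 and 293 CPM in knockdown organoids, against 1776, 1764 and 1823 CPM in control organoids (log2 fold change -2.47, SE 0.06, adjusted p = 9.44e-16). The proteoglycan Cspg5, the matrix protein Smoc2, the xanthine dehydrogenase Xdh and the COP9 signalosome subunit Cops7b had log2 fold changes of -2.26, -2.53, -2.38 and -1.82, and none of them overlapped between groups.

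**Figure D2:**
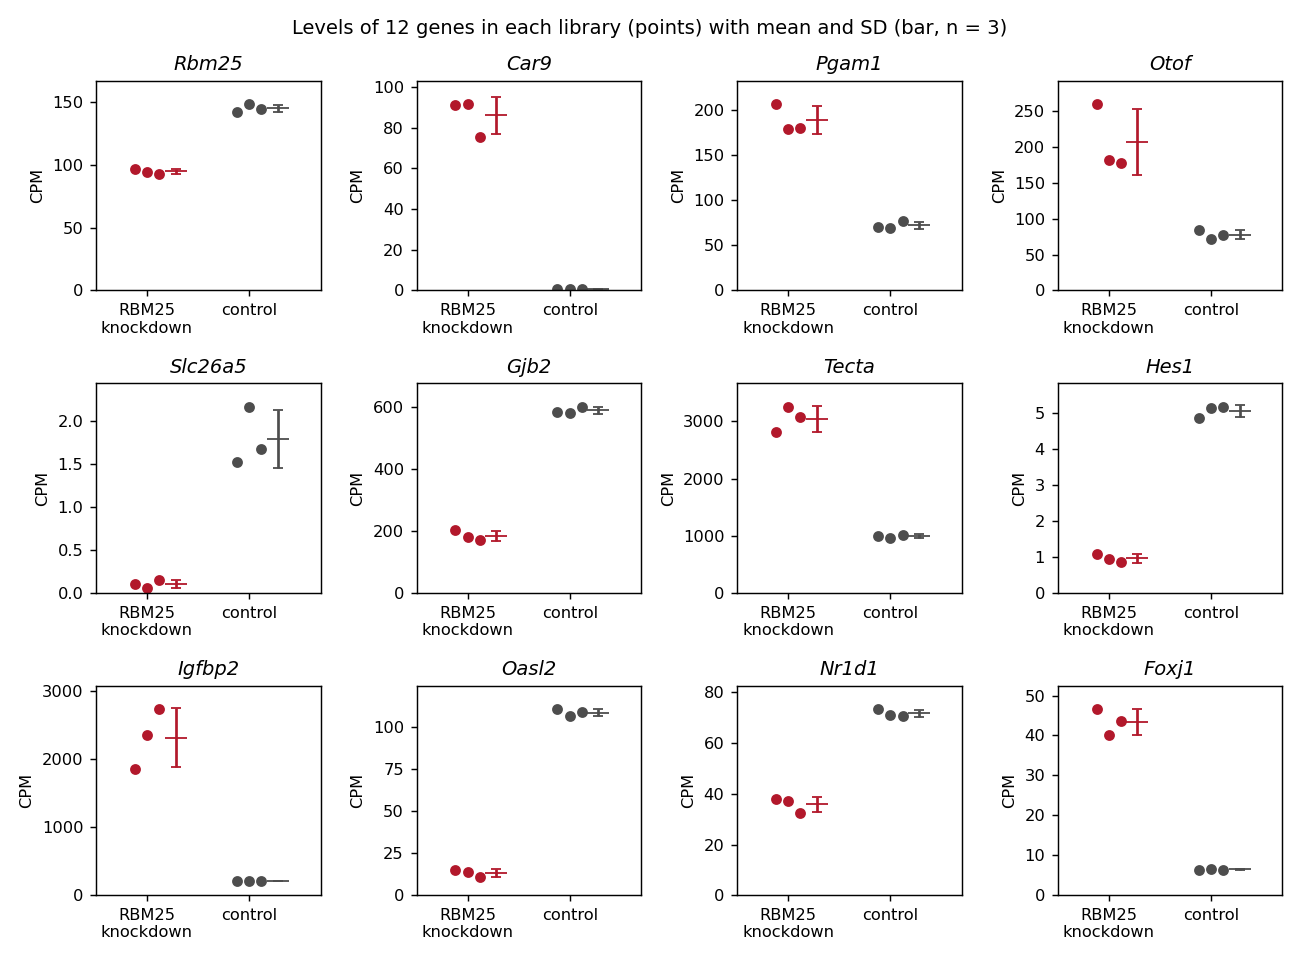
Levels of 12 genes in CPM (vertical axes, each starting at 0), with 1 point per library and a bar for mean and SD (n = 3) beside the points, RBM25 knockdown in red on the left and control in grey on the right. Rbm25 was at 92.7 CPM or more in the knockdown. Car9, Pgam1, Otof, Tecta, Igfbp2 and Foxj1 were higher and Rbm25, Slc26a5, Gjb2, Hes1, Oasl2 and Nr1d1 lower in every knockdown library than in any control library.

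Genes for splicing factors shifted little. Of 24 tested genes of U1 partners and of RBM25's own complexes, 3 rose (24.4% of all genes) and 8 fell (28.2%), Rbm25 itself among them, and the median log2 fold change was 0.00, against -0.03 for all genes. Luc7l2, a LUC7-like protein of the U1 particle, had 281, 256 and 254 CPM in knockdown organoids, against 415, 400.1 and 375 CPM in control organoids (log2 fold change -0.59, SE 0.06, adjusted p = 1.74e-07), a decrease close to that of Rbm25. The U1-associated factor Prpf39 fell by 0.40 on the log2 scale, the SR protein Srsf2 by 0.24, and the Sm proteins Snrpb and Snrpd1 rose by 0.27 and 0.48. The partners that rose numbered 7 without knockdown replicate 1 and 5 without TNF replicate 1. Of 36 other RBM genes 3 rose and 12 fell, of 17 SR protein genes 4 and 5, of 26 hnRNP genes 3 and 8, and of 34 core spliceosome genes 3 and 8. Fitted without TNF replicate 1, 8 hnRNP genes rose. The SR protein genes that rose numbered 2 without knockdown replicate 2 or control replicate 3, and those that fell numbered 3 without control replicate 1 or 2. Rbmx, an X-linked hnRNP, fell by 0.49, and Ptbp3, a polypyrimidine tract-binding protein, fell by 0.59. Of 21 genes of nonsense-mediated decay, which removes transcripts with premature stops, 3 rose and 10 fell. Those that rose numbered 5 without knockdown replicate 1 or TNF replicate 1, and 1 without knockdown replicate 3 or control replicate 2. Smg5, a decay effector, had 125, 116 and 125 CPM in knockdown organoids, against 174, 167 and 173 CPM in control organoids (log2 fold change -0.49, SE 0.05, adjusted p = 7.71e-08).

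Splicing regulators of particular cell types moved further. Of 16 tested, 7 rose and 4 fell. Srrm4, which drives neuronal microexons and is required for hair cells in mice, had 14.4, 9.64 and 10.3 CPM in knockdown organoids, against 4.16, 5.00 and 3.94 CPM in control organoids (log2 fold change 1.39, SE 0.15, adjusted p = 3.50e-07). Khdrbs3, a STAR family RNA-binding protein, had 15.4, 15.5 and 18.3 CPM in knockdown organoids, against 7.54, 6.06 and 6.68 CPM in control organoids (log2 fold change 1.28, SE 0.11, adjusted p = 2.37e-08). Rbm24, an RNA-binding protein of hair cells and muscle, had 66.5, 39.2 and 42.5 CPM in knockdown organoids, against 17.7, 17.0 and 15.4 CPM in control organoids (log2 fold change 1.56, SE 0.23, adjusted p = 3.74e-04). The groups did not overlap for these 3. Esrp1, an epithelial splicing regulator, fell by 0.36 on the log2 scale.

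Hair cell genes were mostly higher in knockdown organoids. Of 44 tested, 33 rose (75% against 24.4% of all genes) and 6 fell, with a median log2 fold change of 1.16 (all genes -0.03), and 27 of them rose at least 2-fold. The mean log2(CPM + 1) of the 44 genes was 4.77, 4.24 and 4.26 in knockdown organoids, against 3.56, 3.56 and 3.61 in control organoids. Over all 48 members in the count table, tested or not, the summed level was 2346, 1742 and 1695 CPM in knockdown organoids. In control organoids this sum was 1483, 1454 and 1494 CPM. Sums for the lists below also take in any members that were not tested. Knockdown replicate 1 was the highest, and without it 31 rose and 6 fell.

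Among the transcription factors of hair cells, Atoh1, the factor that starts their differentiation, had 8.98, 4.57 and 5.99 CPM in knockdown organoids, against 3.33, 3.47 and 3.47 CPM in control organoids (log2 fold change 0.93, SE 0.20, adjusted p = 7.27e-04). Pou4f3, which keeps hair cells alive, had 24.6, 15.0 and 17.0 CPM in knockdown organoids, against 7.20, 6.73 and 7.74 CPM in control organoids (log2 fold change 1.39, SE 0.19, adjusted p = 4.27e-05). Gfi1, which acts downstream of Pou4f3, had 45.6, 34.9 and 38.1 CPM in knockdown organoids, against 12.4, 12.7 and 11.5 CPM in control organoids (log2 fold change 1.69, SE 0.20, adjusted p = 4.00e-05). All 3 were higher in every knockdown library than in any control library. Ikzf2, a factor of outer hair cells, had 46.2, 46.3 and 40.9 CPM in knockdown organoids, against 50.1, 52.1 and 49.3 CPM in control organoids (log2 fold change -0.18, SE 0.06, adjusted p = 0.0229), a decrease whose call was lost in 7 of 14 alternatives, with DESeq2 size factors among them.

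Among genes of the hair bundle and its mechanotransduction, some rose and others fell. Myo7a, an unconventional myosin of stereocilia, had 63.9, 42.3 and 44.3 CPM in knockdown organoids, against 23.1, 21.7 and 21.7 CPM in control organoids (log2 fold change 1.18, SE 0.18, adjusted p = 4.16e-04). Xirp2, an actin-binding protein of stereocilia, had 26.7, 23.9 and 20.4 CPM in knockdown organoids, against 5.31, 6.64 and 6.03 CPM in control organoids (log2 fold change 1.98, SE 0.15, adjusted p = 1.58e-08). Cib2, a calcium-binding partner of the transduction channel, had 50.3, 38.5 and 41.6 CPM in knockdown organoids, against 13.4, 12.4 and 13.4 CPM in control organoids (log2 fold change 1.73, SE 0.09, adjusted p = 2.05e-11). Ptprq, a phosphatase at the base of stereocilia, rose by 1.62 on the log2 scale, and Strc (stereocilin), Clrn1 (clarin 1), Myo15, Cdh23 (a tip link cadherin), Espn (espin) and the channel gene Tmc1 rose by 1.61, 1.73, 1.37, 1.22, 1.14 and 0.78. Others of the bundle were lower. Pcdh15, the other tip link cadherin, had 54.9, 49.9 and 44.5 CPM in knockdown organoids, against 65.1, 66.3 and 64.2 CPM in control organoids (log2 fold change -0.39, SE 0.07, adjusted p = 8.78e-05), and Ush1c, the scaffold harmonin, had 408, 382 and 351 CPM in knockdown organoids, against 626, 618 and 636 CPM in control organoids (log2 fold change -0.72, SE 0.05, adjusted p = 2.42e-09).

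At the synapse, Otof, the calcium sensor otoferlin of vesicle release (chr5:30367066-30462730), had 259, 181 and 178 CPM in knockdown organoids, against 83.6, 71.7 and 77.8 CPM in control organoids (log2 fold change 1.41, SE 0.18, adjusted p = 1.33e-04). Slc17a8, the vesicular glutamate transporter of inner hair cells, had 32.4, 29.1 and 31.0 CPM in knockdown organoids, against 9.58, 7.94 and 9.83 CPM in control organoids (log2 fold change 1.76, SE 0.19, adjusted p = 1.21e-05). The calcium buffer Calb2 had 54.4, 39.3 and 37.5 CPM in knockdown organoids, against 9.35, 10.4 and 10.6 CPM in control organoids (log2 fold change 2.11, SE 0.13, adjusted p = 1.61e-08). No library of one group reached the range of the other for these genes. The efferent acetylcholine receptor subunit Chrna9 rose by 2.39 on the log2 scale. Of 20 ion channel genes of heart and nerve, 11 rose and 3 fell, and 1 passed the count filter only with the knockdown libraries.

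**Figure D3:**
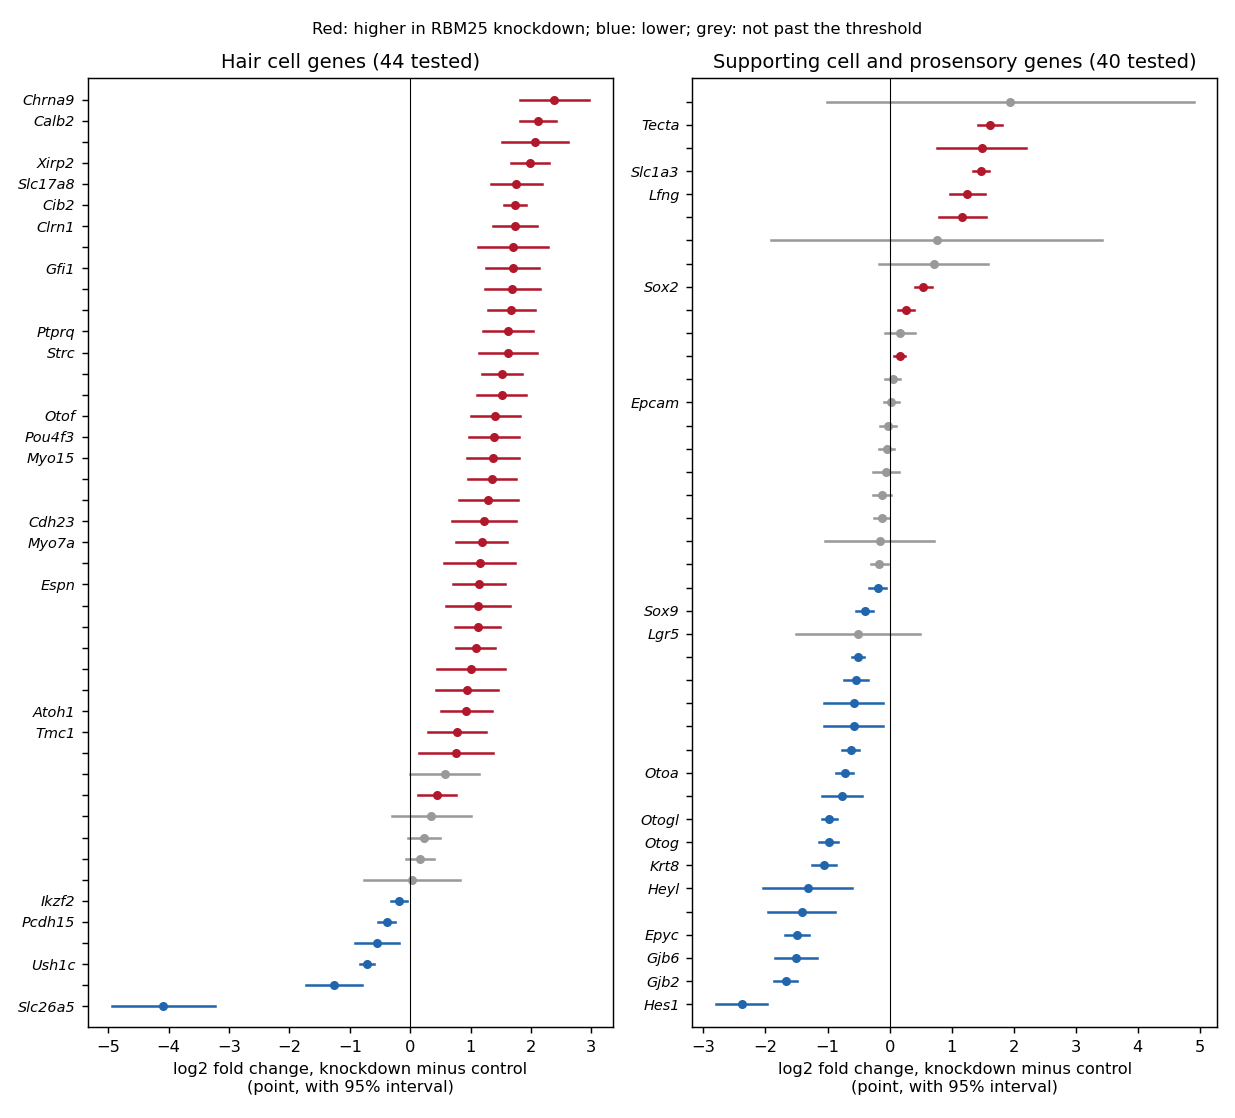
Log2 fold change (horizontal axes, RBM25 knockdown minus control) with its 95% interval for the 44 hair cell genes (left) and 40 supporting cell and prosensory genes (right) that were tested, ordered from highest to lowest. Red genes were higher (33 and 8), blue genes lower (6 and 18) and grey genes did not pass the threshold; genes named in the text are labelled.

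Supporting cell and prosensory genes leaned the other way, and their members differed among themselves. Of 40 tested, 8 rose and 18 fell (45% against 28.2% of all genes), with a median log2 fold change of -0.16. Their summed level was 15613, 16115 and 16043 CPM in knockdown organoids, against 20683, 20425 and 20881 CPM in control organoids. Gjb2, the gap junction protein connexin 26 (chr14:57098602-57104702), had 203.8, 180.0 and 171 CPM in knockdown organoids, against 586, 582 and 602 CPM in control organoids (log2 fold change -1.67, SE 0.09, adjusted p = 5.68e-10). Its partner Gjb6, connexin 30, had 40.6, 37.9 and 24.3 CPM in knockdown organoids, against 99.0, 95.03 and 98.7 CPM in control organoids (log2 fold change -1.51, SE 0.15, adjusted p = 1.52e-05). Both connexins were lower in every knockdown library.

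The glycoproteins of the matrix that lies over the sensory epithelium were among the most abundant transcripts and did not move together. Otog (otogelin) had 2815, 2558 and 2575 CPM in knockdown organoids, against 5278, 5066 and 5326 CPM in control organoids (log2 fold change -0.98, SE 0.07, adjusted p = 2.19e-09). Otoa (otoancorin) had 3011, 3368 and 3458 CPM in knockdown organoids, against 5423, 5366 and 5475 CPM in control organoids (log2 fold change -0.73, SE 0.06, adjusted p = 1.47e-08). Tecta (alpha-tectorin, chr9:42329622-42401690) had 2808, 3256 and 3085 CPM in knockdown organoids, against 995, 957 and 1021 CPM in control organoids (log2 fold change 1.62, SE 0.09, adjusted p = 9.51e-10). Otog and Otoa were lower, and Tecta higher, in every knockdown library. Otogl fell by 0.97 on the log2 scale and the small proteoglycan gene Epyc by 1.49. Slc1a3, the glutamate transporter of inner phalangeal and border cells, rose by 1.48, and the prosensory factor Sox2 rose by 0.55, whereas Sox9 fell by 0.40 and the keratin Krt8 by 1.06.

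Both groups had been differentiated with a blocker of Notch cleavage. Of 29 tested genes of the Notch pathway, 15 rose and 7 fell (24.4% and 28.2% of all genes), with a median log2 fold change of 0.17. Hes1, a target that represses Atoh1, was low in both groups and had 1.09, 0.947 and 0.855 CPM in knockdown organoids, against 4.88, 5.14 and 5.18 CPM in control organoids (log2 fold change -2.38, SE 0.19, adjusted p = 8.23e-09). Among the other targets Heyl had a log2 fold change of -1.32. The ligand Dll1, found on nascent hair cells, had 16.1, 13.2 and 13.8 CPM in knockdown organoids, against 7.57, 7.85 and 6.30 CPM in control organoids (log2 fold change 0.99, SE 0.12, adjusted p = 1.43e-06). The receptor Notch3 had 27.6, 27.2 and 26.5 CPM in knockdown organoids, against 9.81, 8.69 and 8.92 CPM in control organoids (log2 fold change 1.57, SE 0.08, adjusted p = 3.18e-11). Ligand and receptor were higher and Hes1 lower in each knockdown library. Lfng, a glycosyltransferase that modifies Notch, rose by 1.25, and Psen2, a catalytic subunit of gamma-secretase, fell by 0.81.

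Of 31 genes of the Wnt pathway, 9 rose and 12 fell, with a median of -0.03. The filter on low counts admitted 1 of the 31 only with the knockdown libraries. It admitted 1, perhaps the same gene, only with the libraries of knockdown plus TNF, and of the other 30 genes 8 rose and 12 fell. Axin2, a general target and feedback inhibitor, had 139.6, 134 and 138 CPM in knockdown organoids, against 182, 176 and 179.8 CPM in control organoids (log2 fold change -0.39, SE 0.05, adjusted p = 5.88e-06). The target Sp5 fell by 1.48 on the log2 scale, the adhesion receptor Cd44 by 2.46, and the secreted inhibitors Notum, Dkk3 and Wif1 by 1.28, 1.10 and 2.82. Rspo3, a secreted amplifier of Wnt signals, had 0.390, 0.390 and 0.236 CPM in knockdown organoids, against 0, 0.0289 and 0.0294 CPM in control organoids (log2 fold change 3.91). At this level it was not tested in every alternative. It may have passed the filter only through libraries where it is high, so its rise is not read as a result. Of 29 genes of TGF-beta and BMP signalling 12 rose and 7 fell. Lgr5, the R-spondin receptor of progenitor-like supporting cells, had 42.6, 10.0 and 22.2 CPM in knockdown organoids, against 37.7, 33.1 and 36.1 CPM in control organoids (log2 fold change -0.51, SE 0.43, adjusted p = 0.359). The knockdown libraries of Lgr5 lay on both sides of the control range, and without knockdown replicate 1 the difference passed (adjusted p = 0.0266).

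Genes induced by low oxygen and genes of glycolysis were higher in knockdown organoids. Of 34 tested, 29 rose (85.3% against 24.4% of all genes) and 2 fell, with a median log2 fold change of 1.08, and 18 rose at least 2-fold. Their summed level was 8291, 7688 and 7313 CPM in knockdown organoids, against 4175, 4161 and 4247 CPM in control organoids. Car9 led the group. The lactate transporter Slc16a3 had 51.4, 41.9 and 34.4 CPM in knockdown organoids, against 1.43, 1.62 and 2.15 CPM in control organoids (log2 fold change 4.62, SE 0.62, adjusted p = 2.55e-04). Egln3, an oxygen-sensing prolyl hydroxylase that marks hypoxia-inducible factor for decay, had 48.5, 39.6 and 30.0 CPM in knockdown organoids, against 7.20, 6.76 and 6.86 CPM in control organoids (log2 fold change 2.51, SE 0.25, adjusted p = 2.23e-05). Neither overlapped between groups. The glucose transporter Slc2a3, the peptide hormone gene Adm and the collagen prolyl hydroxylase P4ha2 rose by 3.41, 2.33 and 2.09 on the log2 scale. Vegfa, the vascular growth factor, had 279, 229.6 and 199 CPM in knockdown organoids, against 158, 161 and 152 CPM in control organoids (log2 fold change 0.59, SE 0.15, adjusted p = 0.0091), and Bnip3, a mitophagy receptor, rose by 1.10.

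Enzymes of glycolysis were among the genes that rose. Pgam1, phosphoglycerate mutase, had 207, 179 and 181 CPM in knockdown organoids, against 70.9, 69.2 and 77.0 CPM in control organoids (log2 fold change 1.39, SE 0.07, adjusted p = 9.67e-11). Ldha, which makes lactate, had 705, 648 and 597 CPM in knockdown organoids, against 261, 258 and 262 CPM in control organoids (log2 fold change 1.32, SE 0.11, adjusted p = 4.56e-07). Pkm, pyruvate kinase, had 1529, 1442 and 1433 CPM in knockdown organoids, against 809, 795 and 809.8 CPM in control organoids (log2 fold change 0.87, SE 0.06, adjusted p = 3.44e-10). Each knockdown library lay above each control library for the 3 enzymes, and Aldoa and Pgk1 rose by 1.06 and 1.26. The 2 genes of the list that fell both encode hexokinases, which start glycolysis, and 1 fell without knockdown replicate 3. Hk2 had 188, 171 and 142 CPM in knockdown organoids, against 268, 274 and 275 CPM in control organoids (log2 fold change -0.71, SE 0.08, adjusted p = 5.32e-06).

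Promoters of these genes were read from RefSeq (GRCm38.p6) as the 250 bases before the annotated start, and searched on both strands for ACGTG or GCGTG, the core of the site that hypoxia-inducible factor binds. A match stood in 23 of 32 promoters of the list (71.9%), 21 of the 28 whose genes rose among them, and in 6749 of 12392 promoters of all genes tested (54.5%). The promoters of Car9, the gene with the largest rise, and of the oxygen sensor Egln3 are shown with the match in capitals. They lie at chr4:43506776-43507025 (plus strand) and chr12:54203875-54204124 (minus strand), and the matches begin 18 and 229 bases before the start.
Car9: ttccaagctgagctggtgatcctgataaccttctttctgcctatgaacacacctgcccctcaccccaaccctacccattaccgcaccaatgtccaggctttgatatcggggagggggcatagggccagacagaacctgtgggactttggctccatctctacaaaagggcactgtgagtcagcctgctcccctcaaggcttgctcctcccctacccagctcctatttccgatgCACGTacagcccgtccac
Egln3: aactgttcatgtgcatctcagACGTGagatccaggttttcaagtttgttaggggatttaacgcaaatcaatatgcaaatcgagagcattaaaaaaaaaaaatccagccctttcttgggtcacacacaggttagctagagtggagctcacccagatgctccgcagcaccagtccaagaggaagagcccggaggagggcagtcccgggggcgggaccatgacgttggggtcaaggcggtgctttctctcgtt

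Of 69 nuclear genes of oxidative phosphorylation, 41 rose (59.4% against 24.4% of all genes) and 1 fell (none without knockdown replicate 1, control replicate 3 or TNF replicate 1), by small amounts, with a median log2 fold change of 0.19. Atp5b, the catalytic subunit of ATP synthase, had 749, 788 and 815 CPM in knockdown organoids, against 551, 568 and 557 CPM in control organoids (log2 fold change 0.49, SE 0.05, adjusted p = 3.95e-07). Ndufa1, a subunit of complex I, had 64.3, 78.4 and 82.9 CPM in knockdown organoids, against 36.4, 39.0 and 38.7 CPM in control organoids (log2 fold change 0.98, SE 0.08, adjusted p = 1.66e-08), the largest change of the list. Without knockdown replicate 1, 53 rose, and against a minimum fold of 1.5 Ndufa1 alone did. Of 13 mitochondrially encoded genes none rose and 2 fell, and leaving out any 1 knockdown or control library left 1 or none that fell, with 1 that rose without knockdown replicate 1. One of these, the complex I subunit ND2, had 1620.3, 1993 and 1892 CPM in knockdown organoids, against 3024, 2967 and 2571 CPM in control organoids (adjusted p = 0.0434), and its call was lost in 10 of 14 alternatives, with an adjusted p up to 0.745.

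Matrix genes formed another group that was higher. Of 39 matrix protein and crosslinking genes, 27 rose (69.2% against 24.4% of all genes) and 3 fell, with a median log2 fold change of 1.04. Of 36 collagens, 17 rose and none fell, with a median of 1.15, and the collagens together gave 9059, 9037 and 10063 CPM in knockdown organoids, against 6606, 6369 and 6301 CPM in control organoids. Fitted without TNF replicate 1, 25 collagens rose and 1 fell. Agrn, agrin of basement membranes (chr4:156165290-156197533), had 1255, 1366 and 1430.1 CPM in knockdown organoids, against 386, 372 and 395 CPM in control organoids (log2 fold change 1.81, SE 0.06, adjusted p = 9.39e-14). Col4a1, a basement membrane collagen, had 449, 519.8 and 579 CPM in knockdown organoids, against 74.6, 68.2 and 71.5 CPM in control organoids (log2 fold change 2.85, SE 0.23, adjusted p = 7.13e-06). Col4a2, Col4a5 and Col4a6, further chains of the same collagen type, rose by 2.70, 1.24 and 2.35. All of these separated the groups without overlap.

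Col2a1, a collagen of cartilage and the tectorial membrane, had 465, 178 and 267 CPM in knockdown organoids, against 55.3, 49.0 and 51.6 CPM in control organoids (log2 fold change 2.55, SE 0.35, adjusted p = 2.87e-04), and Col11a1 rose by 0.92. Cnmd, chondromodulin of cartilage, had 1826, 2416 and 2669 CPM in knockdown organoids, against 351, 368 and 387 CPM in control organoids (log2 fold change 2.64, SE 0.19, adjusted p = 2.79e-06). Thbs1, the adhesive glycoprotein thrombospondin 1, had 746, 1057 and 1017 CPM in knockdown organoids, against 209, 208 and 210.1 CPM in control organoids (log2 fold change 2.17, SE 0.13, adjusted p = 1.55e-07). These 4 were higher in every knockdown library. The crosslinking enzyme Loxl2, the proteoglycan Fmod and the fibulin Fbln2 rose by 2.51, 3.29 and 1.74. Of 21 metalloproteinases and inhibitors 10 rose and 4 fell, and the inhibitors Timp2 and Timp3 rose by 1.16 and 1.29. Col1a1 and Col3a1, fibrillar collagens of fibroblasts, did not pass. Col1a1 had 29.6, 87.5 and 97.5 CPM in knockdown organoids, against 16.4, 15.1 and 17.2 CPM in control organoids (log2 fold change 2.14, SE 1.05, adjusted p = 0.123), and Col3a1 had 77.9, 132 and 119.7 CPM in knockdown organoids, against 28.4, 27.3 and 29.6 CPM in control organoids (log2 fold change 1.95, SE 0.82, adjusted p = 0.0791). Both were higher in every knockdown library and passed when TNF replicate 1 was left out of the shared fit.

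Of 15 genes of the insulin-like growth factor system, 9 rose and 3 fell, and 1 of the 15 passed the count filter only with the knockdown libraries. Igfbp2, a secreted binding protein (chr1:72824480-72852474), had 1857, 2355 and 2730.5 CPM in knockdown organoids, against 206, 213 and 212 CPM in control organoids (log2 fold change 3.46, SE 0.31, adjusted p = 1.85e-05). Igf1 itself had 51.8, 66.3 and 62.9 CPM in knockdown organoids, against 19.3, 17.7 and 21.98 CPM in control organoids (log2 fold change 1.62, SE 0.15, adjusted p = 5.41e-06). Igfbp5, the most abundant transcript of these organoids, had 22278, 23123 and 23065 CPM in knockdown organoids, against 26489, 26762 and 27535 CPM in control organoids (log2 fold change -0.24, SE 0.07, adjusted p = 0.0106). Igfbp2 and Igf1 were higher and Igfbp5 lower in each knockdown library, and the call of Igfbp5 was lost without knockdown replicate 1. The receptor adaptor Irs2 rose by 0.80, and Igf2bp2, an RNA-binding protein of Igf2 transcripts, fell by 1.75.

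Interferon-stimulated genes were low in these cultures and leaned lower in the knockdown. Of 47 tested, 7 rose and 19 fell (40.4% against 28.2% of all genes), with a median log2 fold change of -0.45, and 19 were under 1 CPM in both groups. Oasl2, a relative of the antiviral oligoadenylate synthetases (chr5:114896926-114912245), had 15.3, 13.7 and 11.0 CPM in knockdown organoids, against 110.3, 106 and 108 CPM in control organoids (log2 fold change -3.02, SE 0.14, adjusted p = 1.26e-08). Iigp1, a GTPase against intracellular pathogens, had 45.7, 43.3 and 44.98 CPM in knockdown organoids, against 134, 127 and 128 CPM in control organoids (log2 fold change -1.54, SE 0.06, adjusted p = 6.64e-13). Stat2, a transcription factor that carries the interferon signal, had 21.0, 23.2 and 18.8 CPM in knockdown organoids, against 32.7, 31.1 and 32.5 CPM in control organoids (log2 fold change -0.61, SE 0.08, adjusted p = 3.88e-06). The groups did not overlap for any of the 3. The ubiquitin ligase Trim25, the GTPase Irgm1, the RNA sensor Ddx58 (RIG-I) and the RNA-editing enzyme Adar fell by 1.51, 0.95, 0.75 and 0.49 on the log2 scale. Ifit2, which binds foreign RNA, went the other way, with 16.4, 19.4 and 20.9 CPM in knockdown organoids, against 2.87, 2.71 and 2.71 CPM in control organoids (log2 fold change 2.77, SE 0.23, adjusted p = 2.21e-07).

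With TNF in the medium the same list stood in the opposite position. Of the 47 genes, 12 passed the filter on low counts only through the libraries with both knockdown and TNF, where they are high, so they are left out of the counts that follow. Of the other 35, 32 were higher with the knockdown under TNF and 2 lower (25.4% and 26.9% of all genes), against 6 higher and 19 lower without TNF. Their median was 0.89 with TNF and -0.45 without it. The knockdown effect differed from that without TNF for 30 of the 35, with higher values under TNF in all 30 (12.3% of all genes differed, 7.54% with higher and 4.81% with lower values under TNF). Over the 15608 genes of all kinds that passed the filter in the same way, 25.1% were higher and 27.4% lower with TNF. Oasl2 had 111, 106 and 114 CPM with knockdown and TNF, against 154, 116 and 112 CPM with TNF alone, and the knockdown effects differed by 2.81 (log2, adjusted p = 7.03e-06). The plot of the list with and without TNF shows the shift for each of the 35 genes.

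**Figure D4:**
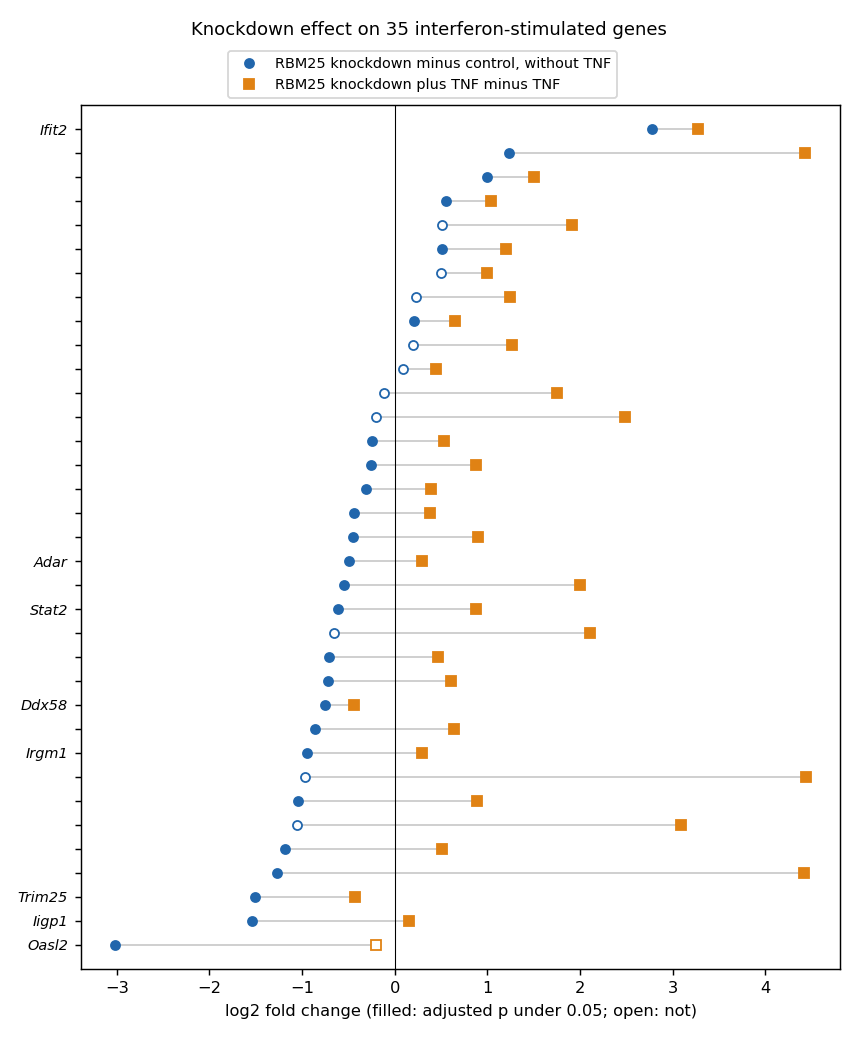
Log2 fold change of 35 interferon-stimulated genes (1 row each), without the 12 that passed the count filter only through libraries with knockdown and TNF, for RBM25 knockdown against control without TNF (blue circles) and for RBM25 knockdown plus TNF against TNF (orange squares), joined by a line. Filled symbols have an adjusted p under 0.05 and open symbols do not; with TNF 32 genes were higher and 2 lower, and without TNF 6 were higher and 19 lower. Genes named in the text are labelled.

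The 250 bases before the start were searched in this list for TTTCNNTTTC on both strands, the core of the interferon-stimulated response element. A match stood in 15 of 36 promoters (41.7%), against 311 of 12392 promoters of all genes tested (2.51%), and in 4 of the 14 whose genes fell, 1 of the 4 whose genes rose and 10 of the 18 that did not pass. The 36 were drawn from all 47 genes, without leaving out the 12 that passed the filter only through libraries with knockdown and TNF. None of those 12 fell, so the shares of genes that fell and of genes that did not pass are not compared. Stat2 and Irgm1, which both fell, are shown with the matches in capitals, at chr10:128270248-128270497 (plus strand) and chr11:48871421-48871670 (minus strand, 2 overlapping matches on the reverse strand).
Stat2: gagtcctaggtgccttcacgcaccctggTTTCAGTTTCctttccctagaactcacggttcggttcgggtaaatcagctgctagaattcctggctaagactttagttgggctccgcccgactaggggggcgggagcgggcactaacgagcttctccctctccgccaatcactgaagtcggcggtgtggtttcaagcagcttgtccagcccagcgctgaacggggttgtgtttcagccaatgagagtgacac
Irgm1: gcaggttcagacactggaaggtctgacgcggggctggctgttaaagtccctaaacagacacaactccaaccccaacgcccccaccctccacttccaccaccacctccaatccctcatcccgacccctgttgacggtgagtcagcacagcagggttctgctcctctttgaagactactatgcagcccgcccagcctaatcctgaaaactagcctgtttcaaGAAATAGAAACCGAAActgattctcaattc

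NF-kB, the transcription factor that TNF activates, had most of its subunits and inhibitors lower without TNF in the medium. Of 15 genes, 3 rose and 8 fell (53.3% against 28.2% of all genes), all but Bcl3 by less than 2-fold, with a median log2 fold change of -0.17. The subunits Relb, Nfkb2 and Rela fell by 0.61, 0.53 and 0.34, the inhibitors Nfkbia and Nfkbib by 0.36 and 0.52 and the kinase Ikbkb by 0.46. Ikbkb had 72.0, 74.2 and 70.8 CPM in knockdown organoids, against 100.3, 99.6 and 97.9 CPM in control organoids. Bcl3, a nuclear cofactor, rose by 1.21. Of 23 genes of TNF receptors and proximal signalling, 3 rose and 9 fell, and Tnf had no count in either group. Those that rose numbered 5 without TNF replicate 1, and 1 without knockdown replicate 3, control replicate 1 or control replicate 2. Tnip2, an inhibitor of this signalling, fell by 0.83, and Birc3, a ubiquitin ligase of the receptor complex, by 0.58. Of 18 genes of antigen presentation 3 rose (5 without knockdown replicate 1) and 5 fell, with H2-D1 at 0.82 and H2-T23 at -0.60. Of 14 complement genes 10 rose and none fell, and the C1 inhibitor Serping1 had 8.27, 12.5 and 14.6 CPM in knockdown organoids, against 2.64, 2.05 and 2.50 CPM in control organoids (log2 fold change 2.30, SE 0.34, adjusted p = 3.00e-04). Of 17 chemokines 3 rose and 1 fell (2 without knockdown replicate 3), of 16 interleukins and other cytokines 4 rose and 3 fell, and of 8 acute phase genes 1 rose and 1 fell. Of these 3 lists, 10, 5 and 6 genes were under 1 CPM in both groups. On the 6 compared libraries alone, 11, 15 and 4 passed the count filter. Members that did not pass the test are therefore not read as unchanged. Among cytokines Il18 and Il15 fell by 1.65 and 1.499, and the chemokine Cxcl14 rose by 2.18.

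Cell cycle genes were low and mostly higher in the knockdown. Of 41 tested, 31 rose (75.6% against 24.4% of all genes) and 1 fell, with a median log2 fold change of 0.76. Mki67, a marker of cycling cells, had 4.06, 4.24 and 5.78 CPM in knockdown organoids, against 0.401, 0.722 and 0.324 CPM in control organoids (log2 fold change 3.27, SE 0.28, adjusted p = 1.45e-08). Top2a, which untangles chromosomes, had 6.82, 4.38 and 5.78 CPM in knockdown organoids, against 0.516, 0.924 and 0.647 CPM in control organoids (log2 fold change 3.02, SE 0.26, adjusted p = 2.07e-08). Cdk1, the mitotic kinase, had 4.06, 2.90 and 4.39 CPM in knockdown organoids, against 0.746, 0.751 and 0.677 CPM in control organoids (log2 fold change 2.38, SE 0.23, adjusted p = 6.66e-08). The groups did not overlap for these 3 genes, and no library exceeded 6.82 CPM. Ube2c and Aurkb, needed for mitotic exit and chromosome segregation, rose by 3.55 and 3.00. Ccnd2, the cyclin that fell, was far more abundant, with 13.6, 17.2 and 13.8 CPM in knockdown organoids, against 55.3, 60.0 and 56.2 CPM in control organoids (log2 fold change -1.95, SE 0.09, adjusted p = 9.24e-12).

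Inhibitors of the cycle split. Of 12 genes of CDK inhibition and senescence, 7 rose and 3 fell. Cdkn1c, p57 (chr7:143458339-143461059), had 140.4, 145 and 151 CPM in knockdown organoids, against 39.3, 36.1 and 38.7 CPM in control organoids (log2 fold change 1.94, SE 0.14, adjusted p = 1.45e-06). Cdkn2a, which encodes p16 and p19, had 0.754, 1.39 and 1.83 CPM in knockdown organoids, against 6.19, 6.12 and 7.48 CPM in control organoids (log2 fold change -2.33, SE 0.23, adjusted p = 2.93e-07), and its neighbour Cdkn2b fell by 1.12. Of 25 p53 targets 13 rose and 2 fell, with a median of 0.25. Cdkn1a, p21, had 64.2, 56.8 and 57.4 CPM in knockdown organoids, against 43.3, 44.0 and 43.4 CPM in control organoids (log2 fold change 0.45, SE 0.07, adjusted p = 1.86e-05). Phlda3 and Eda2r rose by 1.30 and 1.07, and Rrm2b and the death receptor Fas fell by 0.69 and 1.73. The groups did not overlap for any of these genes.

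Of 20 genes of the Bcl2 family, which controls mitochondrial cell death, 10 rose and 4 fell. Bcl2l1, the gene of the RBM25 splicing target Bcl-x, had 128, 129.5 and 137 CPM in knockdown organoids, against 121, 132 and 130.1 CPM in control organoids (log2 fold change 0.04, SE 0.05, adjusted p = 0.476), with overlapping groups. The 95% interval of its log2 fold change ran from -0.06 to 0.15, and its long and short isoforms are not separated by gene counts. Mcl1, a survival member, had 153, 163 and 172 CPM in knockdown organoids, against 118, 122 and 124 CPM in control organoids (log2 fold change 0.42, SE 0.05, adjusted p = 8.34e-07). The death-promoting members Bok, Pmaip1 and Bbc3 rose by 2.03, 1.496 and 0.64, and Bik and Bcl2l14 fell by 1.25 and 1.04. Of 19 caspase and necroptosis genes 8 rose and 5 fell (2 without knockdown replicate 1 or control replicate 2, and 3 without control replicate 3 or TNF replicate 1), and Apaf1, the core of the apoptosome, rose by 0.75. Of 25 genes of the DNA damage response 7 rose (4 without control replicate 1) and 5 fell.

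Stress responses did not move as one. Of 31 genes of the unfolded protein and amino acid response, 12 rose and 15 fell, and 1 passed the count filter only with the knockdown libraries. Atf4, the central factor of the amino acid response, had 185, 192 and 189 CPM in knockdown organoids, against 279, 282 and 287 CPM in control organoids (log2 fold change -0.58, SE 0.04, adjusted p = 8.14e-10). Herpud1, of degradation at the endoplasmic reticulum, had 42.8, 40.7 and 39.4 CPM in knockdown organoids, against 91.5, 90.4 and 92.1 CPM in control organoids (log2 fold change -1.16, SE 0.05, adjusted p = 4.13e-12). Atf5, Ddit3 (CHOP) and Nupr1 fell by 1.03, 0.64 and 2.30 on the log2 scale, whereas the chaperones of the endoplasmic reticulum Hspa5 (BiP) and Pdia6 rose by 0.53 and 0.84. Of 20 heat shock chaperones 5 rose and 8 fell. Hspb1, a small heat shock protein, had 4.01, 4.21 and 3.80 CPM in knockdown organoids, against 31.0, 30.2 and 34.8 CPM in control organoids (log2 fold change -2.99, SE 0.10, adjusted p = 8.88e-14). Hspa2 and Hspa1b fell by 1.60 and 1.38, and Hsph1 rose by 0.54; Hspa1b shares sequence with a near-identical copy, so its level is uncertain. Of 23 immediate early genes 7 rose and 3 fell, among them Atf3 (-1.57) and Klf6 (-1.502).

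Clock genes were mostly lower. Of 19 tested, 13 fell (68.4% against 28.2% of all genes) and 2 rose, with a median log2 fold change of -0.39. Nr1d1, the repressor REV-ERB alpha (chr11:98767932-98775377), had 37.7, 37.3 and 32.4 CPM in knockdown organoids, against 73.2, 70.9 and 70.5 CPM in control organoids (log2 fold change -0.998, SE 0.06, adjusted p = 2.26e-10). Dbp, an output factor of the clock, had 28.7, 28.1 and 27.4 CPM in knockdown organoids, against 51.8, 55.8 and 54.7 CPM in control organoids (log2 fold change -0.95, SE 0.06, adjusted p = 2.42e-10). Nr1d2 and the nuclear receptor Rora fell by 0.88 and 0.68. Arntl, BMAL1 of the activating arm, was higher, with 33.8, 33.5 and 34.2 CPM in knockdown organoids, against 28.6, 25.3 and 26.7 CPM in control organoids (log2 fold change 0.33, SE 0.06, adjusted p = 2.53e-04). None of these groups overlapped, and the time of day at harvest is not given in the sources used here.

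Of 64 ribosomal protein genes, 1 rose and 18 fell, with a median of -0.05. The largest change among them was in Rplp1, with 569.7, 621 and 672 CPM in knockdown organoids, against 838, 865 and 869 CPM in control organoids (log2 fold change -0.47, SE 0.06, adjusted p = 1.64e-06). Without knockdown replicate 3, 29 fell, without replicate 2, 11 fell, and without replicate 1, 10 fell and 8 rose. Without TNF replicate 1, 3 rose, and none did without knockdown replicate 2 or 3 or without control replicate 1 or 2. Of 31 genes of sterol and fatty acid synthesis 14 rose and 8 fell. The elongase Elovl6 had 61.1, 66.8 and 67.8 CPM in knockdown organoids, against 27.4, 27.1 and 28.7 CPM in control organoids (log2 fold change 1.23, SE 0.06, adjusted p = 1.22e-11). Of 27 lysosomal and autophagy genes 10 rose and 11 fell. The cholesterol exporter Npc1 and the sphingolipid activator Psap fell by 0.75 and 0.53, and the enzymes Ctsz and Hexa rose by 1.02 and 0.61. Of 28 antioxidant genes 7 rose and 10 fell, and 6 fell without knockdown replicate 1. Sod3, the extracellular superoxide dismutase, had 302, 369 and 361 CPM in knockdown organoids, against 42.3, 42.4 and 45.1 CPM in control organoids (log2 fold change 2.99, SE 0.09, adjusted p = 6.42e-12), and the heme oxygenase Hmox1 rose by 1.4999.

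Groups made of small changes depended on what counted as a change. Against a minimum fold of 1.5, none of the genes of NF-kB, of nonsense-mediated decay, of the core spliceosome or of the ribosome fell, 5 clock genes fell, and 3 p53 targets and 3 Notch genes rose. Hypoxia and hair cell genes were less affected, with 23 and 26 that rose.

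**Figure D5:**
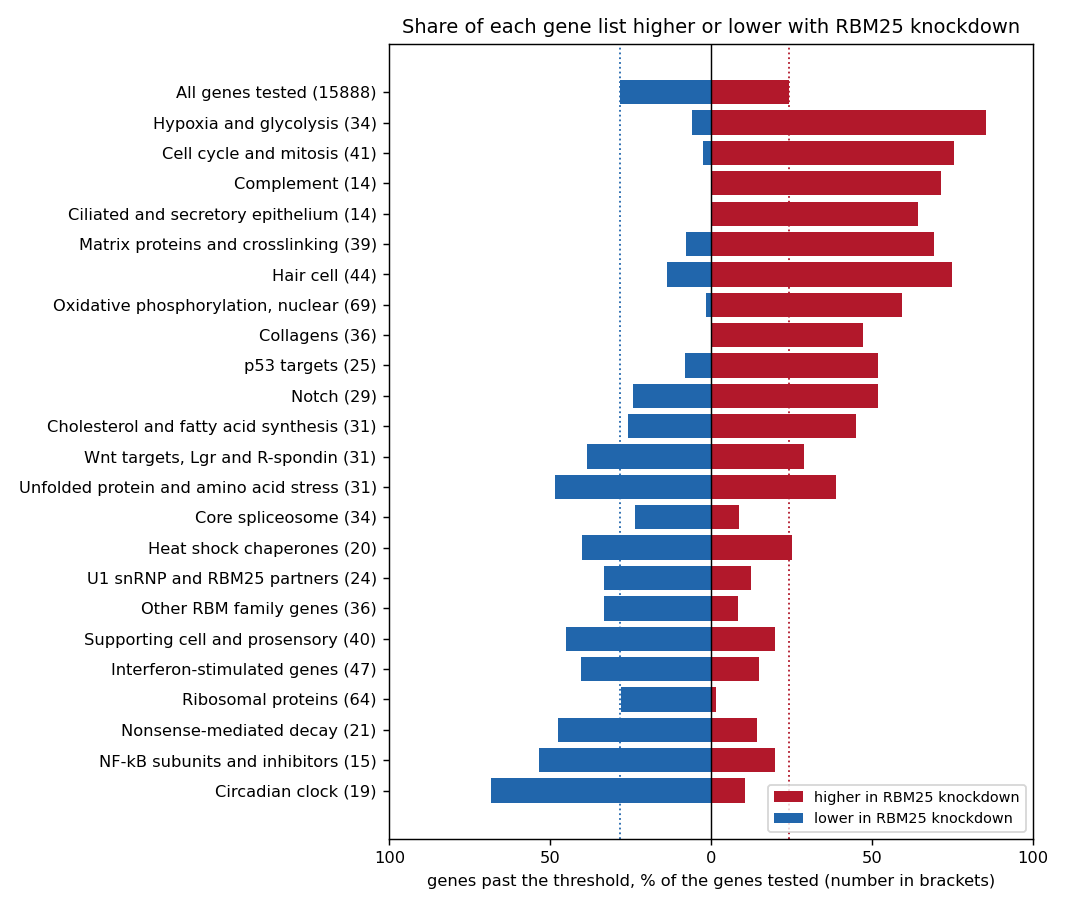
Share of the tested genes of 23 gene groups, and of all 15888 genes tested at the top, that was higher (red, to the right) or lower (blue, to the left) in RBM25 knockdown than in control organoids at an adjusted p under 0.05. Dotted lines mark the shares of all genes (24.4% and 28.2%); hypoxia, hair cell and cell cycle genes reach furthest to the right and clock genes furthest to the left.

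Markers of cell types outside the sensory epithelium moved too, and their part in the results above was not tested. Of 14 genes of ciliated and secretory epithelium, 9 rose and none fell, with a summed level of 220.2, 197 and 197 CPM in knockdown organoids, against 81.0, 77.4 and 83.1 CPM in control organoids, and the secretory genes Muc5b and Bpifb1 had no count in either group. Foxj1, the master factor of motile cilia (chr11:116330704-116335499), had 46.6, 40.1 and 43.6 CPM in knockdown organoids, against 6.48, 6.58 and 6.39 CPM in control organoids (log2 fold change 2.74, SE 0.12, adjusted p = 7.22e-12). Dnah9, an axonemal dynein, had 10.8, 9.20 and 11.1 CPM in knockdown organoids, against 1.61, 1.65 and 1.44 CPM in control organoids (log2 fold change 2.72, SE 0.19, adjusted p = 8.39e-10), and Tekt1 rose by 1.32. Foxj1 and Dnah9 were higher in every knockdown library.

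Of 11 chondrocyte and muscle genes 5 rose and 2 fell, with a summed level of 3329.6, 3528 and 3989 CPM in knockdown organoids, against 1119.6, 1119 and 1135 CPM in control organoids. Only with the knockdown libraries did 1 of the 11 pass the count filter, and 3 passed only with the libraries of knockdown plus TNF. Without these 3, 4 of 8 genes rose and 2 fell. Of the 11, 4 were under 1 CPM in both groups. Acan, Myh8 and Myod1, which define cartilage and muscle, had no count, and Runx2, of bone, fell by 2.44. Of 21 mesenchymal genes 8 rose and 5 fell, and 13 rose when TNF replicate 1 was left out. Their summed level was 1245, 1274 and 1530.2 CPM in knockdown organoids, against 1739.9, 1744 and 1714 CPM in control organoids. Coch, cochlin of spiral ligament fibrocytes, had 6.30, 3.96 and 5.96 CPM in knockdown organoids, against 34.2, 35.6 and 32.8 CPM in control organoids (log2 fold change -2.66, SE 0.46, adjusted p = 0.00118), and Lum, a fibroblast proteoglycan, fell by 1.55. Fbn1, a microfibril protein, rose by 2.04, and Postn, of activated fibroblasts, had 6.84, 8.44 and 8.55 CPM in knockdown organoids, against 0.975, 0.895 and 1.29 CPM in control organoids (log2 fold change 2.91, SE 1.46, adjusted p = 0.131). The list thus held members that moved in both directions.

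Of 18 neuronal genes 10 rose and 3 fell, while their summed level was 496, 478 and 518 CPM in knockdown organoids, against 705, 704 and 717 CPM in control organoids. The filter on low counts admitted 2 of the 18 only with the knockdown libraries, which favours members that rose. The abundant Ntrk2, a neurotrophin receptor, had 113, 126 and 153 CPM in knockdown organoids, against 336, 331 and 347 CPM in control organoids (log2 fold change -1.37, SE 0.09, adjusted p = 9.03e-08), and the factor Isl1 fell by 1.13. The synaptic gene Syn1 and the growth cone gene Gap43 rose by 2.31 and 3.23. Of 14 Schwann cell and glial genes 4 rose and 3 fell, with the calcium-binding protein S100b at -2.03 and Pmp22 at 1.64. Here too the filter admitted 2 of the 14 only with the knockdown libraries. It admitted 1 only with the libraries of knockdown plus TNF, and without that gene 3 rose and 3 fell. Of 12 endothelial genes 6 rose and none fell, at a summed 62.6, 65.9 and 83.8 CPM in knockdown organoids, against 35.7, 36.7 and 39.6 CPM in control organoids. Their defining gene Cdh5, at or under 0.944 CPM in every library, rose by 4.16. The macrophage and leukocyte list summed to 2.06, 2.29 and 1.77 CPM in knockdown organoids, against 2.90, 2.77 and 2.80 CPM in control organoids, and Csf1r and Trem2 had no count. Of 10 melanocyte and stria genes 4 rose and 2 fell.

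The count filter, TMM factors and estimate of the spread came from 1 fit of all 12 organoid libraries. In it, the knockdown effect was measured again between RBM25 knockdown plus TNF and TNF organoids, whose group means share no library with those above. There, 4035 genes were higher (25.4%) and 4279 lower (26.9%), together 52.3% of the genes tested. Higher in both were 2782 genes, 71.9% of those higher without TNF and 68.9% of those higher with TNF. Lower in both were 3047 genes, 67.9% and 71.2% of the lists. Of the genes higher without TNF 1.78% were lower with it, and of the genes lower without TNF 2.30% were higher with it. By group, 30 of 44 hair cell genes were higher with the knockdown under TNF (median log2 fold change 0.87), 29 of 34 hypoxia and glycolysis genes (0.78), 25 of 41 cell cycle genes (0.70) and 22 of 36 collagens (1.01), and 12 of 19 clock genes were lower (-0.21).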

How the data were processed

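Per the labels' protocols, total RNA was made into TruSeq libraries, which keep no strand, and read on a HiSeq. The deposited table of counts holds whole reads for each gene, as the authors counted them, not normalized. The deposited FPKM table holds values the authors scaled to gene length and depth, and served for 1 alternative. Tools named in the submitters' processing notes are HISAT2, HTSeq, Trimmomatic and DESeq2, with the mm10 build; no version is stated there.

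The counts of all 12 organoid libraries were fitted with edgeR 4.0.16 in R 4.3.3 (1 coefficient per group, TMM factors, filterByExpr, robust quasi-likelihood F-test, two-sided, Benjamini-Hochberg over 15888 genes, adjusted p under 0.05). The groups share 1 estimate of the spread. On simulated data for the comparison of knockdown with control (15205 genes), 80.6% of simulated 1.5-fold changes, 91% of 2-fold and 98.5% of 4-fold changes were called. Of the calls, 8.16% fell on unchanged genes, above the nominal 0.05. Only 67, 67 and 66 genes were changed by these folds, in both directions and above 1 CPM in controls, with all else at control means. In the real data 52.6% of genes were called, so these rates are not error rates of the real comparison.

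The comparison, the 50 gene lists and the genes named were chosen with earlier results of these data known. The rule for naming took Rbm25, the 12 highest and 12 lowest log2 fold changes among genes that passed, reached 1 CPM in the higher group, did not overlap between groups and had no predicted name, the 5 smallest p-values in each direction, and, from each list, up to 4 genes by smallest p. Many list members that the rule took are not named above, and for some lists, such as the core spliceosome, none is. Other list members were chosen after their values were seen, and some genes are not reported here. Lists are described by counts and medians, with no set test. Alternatives were DESeq2 1.42.0 size factors and its Wald test, no count filter, a replicate block, a fit of the compared libraries only, limma 3.58.1 on log2(FPKM + 1) for genes with a group mean of at least 0.5 FPKM, a minimum fold of 1.5 (glmTreat), and leaving out each library. Coordinates and promoters are from RefSeq GRCm38.p6, matched by Entrez identifier for 15668 of the genes tested.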

Additional observations from a re-analysis of the deposited data

Results flagged for a closer look

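The knockdown effect in the presence of TNF differed from that in its absence, by the interaction term of the fit over the 12 organoid libraries, for 1962 genes (12.3% of 15888). That count was 1221 without control replicate 1 and 1290 without replicate 1 of RBM25 knockdown plus TNF. Of the 216 genes named above, 72 were among them, and each value below is the effect with TNF minus the effect without it, on the log2 scale. A positive value means a higher relative level with the knockdown under TNF. The named genes were mostly chosen by the size or p-value of the effect without TNF, which enters this difference with the opposite sign. That choice alone moves genes that rose towards negative values and genes that fell towards positive ones. The 72 of 216 is therefore not to be read against the share of all genes, nor the balance of signs below as a result.

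Among interferon and immune genes named above, positive differences were found, at 2.81 for Oasl2, 1.69 for Iigp1, 1.49 for Stat2, 1.38 for Ly6e, 1.25 for Irgm1, 1.08 for Trim25, 0.78 for Adar and 0.31 for Ddx58. The same sign held for Il18 (0.86), H2-T23 (0.62), Relb (0.47), Birc3 (0.44), Nfkbib (0.37), Nfkb2 (0.29) and Nfkbia (0.21), whereas Bcl3 (-1.16) and Cxcl14 (-0.79) had negative ones. Positive values were also found for Fas (2.00), Cdkn2b (0.78), Cdkn1a (0.56) and Bcl2l1 (0.41), and a negative one for Eda2r (-0.52). Of 20 Bcl2 family genes 1 had a positive and 3 had a negative difference, of 25 p53 targets 5 and 2, and of 12 genes of CDK inhibition and senescence 2 and none.

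Among genes that were higher with the knockdown and had smaller increases under TNF were Abca13 (-2.34), Aire (-2.11), Slc2a3 (-2.07), Mab21l4 (-1.87), Mki67 (-1.77), Top2a (-1.50), Thbs1 (-1.43), Elovl6 (-1.16), Ptprq (-1.02), Dnah9 (-0.95), Loxl2 (-0.79), Bnip3 (-0.61), Tecta (-0.60), Khdrbs3 (-0.58), Nes (-0.53), Pgk1 (-0.50), Ctsz (-0.40), Pgam1 (-0.36) and Slc1a3 (-0.30). Larger increases under TNF belonged to Fbln2 (1.19), Sod3 (1.15), Igf1 (0.87), Kank4 (0.54), Notch3 (0.40), Agrn (0.38), Col11a1 (0.35) and Col4a5 (0.29).

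Among genes that were lower with the knockdown, the difference was positive for Slc22a3 (2.14), Runx2 (1.51), Sp5 (1.29), Cops7b (1.27), Cspg5 (1.27), Nav2 (1.14), Hes1 (1.11), Hspb1 (1.10), Dkk3 (0.84), Nr1d1 (0.83), S100b (0.83), Otog (0.79), Hspa1b (0.64), Igfbp5 (0.61), Dbp (0.49), Klf6 (0.47), Gjb2 (0.41), Psap (0.35), Xdh (0.35) and Rplp1 (0.32), and negative for Pcdh15 (-0.60) and Smoc2 (-0.37). Epcam, which did not pass without TNF, had a difference of -0.30.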

How the results depend on the processing

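Whether the replicate numbers pair the libraries is not settled, and the main fit did not pair them. Deviations of same-numbered knockdown and control libraries from their group means correlated at 0.292, 0.034 and 0.26. For the libraries with TNF the values were 0.008, -0.107 and -0.017. With a replicate block the counts were 3792 higher and 4391 lower without TNF, 3954 and 4184 with TNF and 1741 for the interaction, and Rbm25 had a log2 fold change of -0.61 (adjusted p = 2.93e-07). Against a minimum fold of 1.5, 1460 genes were higher and 890 lower without TNF, 1298 and 611 with TNF, 112 differed between these effects, and Rbm25 did not pass (adjusted p = 0.555; over all alternatives 1.53e-17 to 0.555). Leaving out 1 library at a time gave 3445 to 4068 higher and 3921 to 4065 lower without TNF, 3552 to 3814 and 3887 to 4121 with TNF, 1221 to 2337 for the interaction and -0.60 to -0.63 for Rbm25. Leaving out TNF replicate 1, an alternative added after the data were seen, gave 4310 higher and 4173 lower. Of the 210 named genes that passed, 165 kept their call in every alternative that tested them, at most 14 per gene. Some genes were not tested in all of these, such as Slc26a5 (13) and Rspo3 (12). Of the other 45, 42 lost their call only against the minimum fold, and the exceptions were Igfbp5, Ikzf2 and ND2. Also, Col1a1, Col3a1, Postn and Lgr5, which did not pass, were called in 1 to 3 alternatives each. No named gene that passed changed sign in an alternative that tested it. For the 6 that did not pass, the sign was compared only where an alternative called them.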
